A study of Mus musculus with 12 samples.

Results

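The 9 genes described here, Mbp, Mog, Mag, Mobp, Cnp, Cldn11, Opalin, Mal and Ermn, encode proteins of the myelin sheath and of the mature oligodendrocyte that makes it. They were taken as a list of gene symbols from 30165 genes counted in oligodendrocyte precursor cells (OPCs) and from 17918 genes counted in neurons, and all 9 were present in both tables. The study asked whether OPCs and neurons communicate through direct physical contacts. Among its models of reduced contact were mice whose OPCs lacked the L-type calcium channel genes Cacna1c and Cacna1d. RNA was sequenced from OPCs and from neurons of the cortex of ctl mice, labelled WT, and of dKO mice, in which tamoxifen-activated NG2-CreERT2 recombined floxed alleles of both channel genes. Each of the 4 groups held 3 libraries, and each library pooled 2 mice.

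Per the study's methods, tamoxifen was given at 100 mg/kg on postnatal days 7 and 8. The age at collection for sequencing, and whether the ctl mice carried Cre or floxed alleles, are not given in the sources used here. NG2 is made by OPCs and also by pericytes of blood vessels, so the Cre driver is not limited to the oligodendrocyte lineage. OPCs were collected with magnetic beads, including beads against O4, a surface lipid that maturing oligodendrocytes keep. Neurons were what remained after astrocytes, endothelial cells, microglia and O4-positive cells had been held back by beads, so neither fraction was a pure cell type. For its animal work the study states that litters of several breeding pairs were used and that littermates were grouped by genotype. Which litters make up which library is not given in the sources used here, and p-values measure the spread between these libraries only.

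Myelin is oligodendrocyte membrane wrapped around axons in many layers. Its compact part is held together on the cytoplasmic face by myelin basic protein and closed at its edges by claudin-11 junctions, while Mog lies on the outermost surface and Mag on the innermost, next to the axon. Mbp and Mobp messenger RNAs are unusual in being carried out of the cell body into the oligodendrocyte's processes and translated at the forming sheath. OPCs have little of these transcripts, which come on as the cells leave the cell cycle and mature.

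Promoter sequences are shown for 3 genes around which the OPC results turn: Mog and Opalin, the members with the lowest fold changes, and Mobp, which did not move with them. Each is the 250 bases before the gene's start in RefSeq on GRCm38.p6, written 5′ to 3′ on the gene's own strand, at chr17:37023399-37023648 (minus strand) for Mog, chr19:41077114-41077363 (minus strand) for Opalin and chr9:120149492-120149741 (plus strand) for Mobp. Capitals mark CTGGNAC, the motif associated with the oligodendrocyte regulator Myrf, and ACAAAG, a core motif of Sox factors, on either strand.
Mog: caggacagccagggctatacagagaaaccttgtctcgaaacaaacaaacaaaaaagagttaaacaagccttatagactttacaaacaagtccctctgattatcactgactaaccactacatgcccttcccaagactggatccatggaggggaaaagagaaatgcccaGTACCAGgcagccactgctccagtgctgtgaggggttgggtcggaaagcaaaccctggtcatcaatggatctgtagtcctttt
Opalin: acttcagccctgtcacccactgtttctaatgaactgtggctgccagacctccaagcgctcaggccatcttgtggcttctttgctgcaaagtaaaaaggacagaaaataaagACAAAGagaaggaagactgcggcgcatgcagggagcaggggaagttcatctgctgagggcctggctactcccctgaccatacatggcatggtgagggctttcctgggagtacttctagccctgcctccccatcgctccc
Mobp: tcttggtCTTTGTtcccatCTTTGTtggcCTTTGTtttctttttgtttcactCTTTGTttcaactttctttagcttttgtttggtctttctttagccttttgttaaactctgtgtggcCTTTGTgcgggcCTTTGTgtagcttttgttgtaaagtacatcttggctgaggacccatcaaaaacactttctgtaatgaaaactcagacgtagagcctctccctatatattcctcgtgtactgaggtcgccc

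Of the 9 members, 8 had a promoter in the RefSeq table, and Mag had 3. CTGGNAC was present before 3 of these 8 genes (Mog, Mag and Cnp) and in 16.1% of all 32851 promoter windows of the same length. ACAAAG was present before 4 of the 8 (Mag, Mobp, Cnp and Opalin) and in 16.5% of all windows. The E-box CAGCTG, which was also searched on both strands, was before 0 of the 8 and in 13% of all windows. The Mobp window held 6 separate ACAAAG matches, all on the opposite strand (printed as CTTTGT), the first 243 and the last 120 bases before the start. Among the 32851 windows, 1 held 6 or more, and this was the Mobp window, a count looked up after its sequence was seen. These matches describe letters in a window and say nothing of whether a factor binds there.

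The libraries were checked by the genes that should mark them before the members were compared. In FPKM, read levels scaled to gene length and depth as the authors deposited them, the ctl OPC libraries had 89.5 to 123 of Myrf, a regulator of maturing oligodendrocytes, against 4.29 to 11.7 of the OPC receptor Pdgfra and 2.66 to 3.92 of Cspg4, which encodes NG2. The oligodendrocyte regulator thus stood above both precursor markers in the fraction labelled OPC. The fraction labelled neuron held 103 to 105 TPM (a transcript level that is also scaled to length and depth) of the synaptic gene Snap25 and 2.86 to 4.12 of Rbfox3 in ctl, against 2245 to 2843 of the endothelial gene Cldn5. Ttr, a gene of the choroid plexus that was added after its values were seen, stood at 12261 to 26471 TPM there and at 8082 to 18356 FPKM in the ctl OPC libraries. Cacna1c, counted over the whole gene, had 374, 412 and 440 normalized counts in the ctl OPC libraries and 253, 338 and 313 in the dKO ones (log2 fold change -0.44 ± 0.15 SE, edgeR adjusted p = 0.349), and Cacna1d had a log2 fold change of -0.55 ± 0.31 (edgeR adjusted p = 0.531).

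Sex-linked genes set libraries apart. OPC dKO library 2 had 756 CPM (counts scaled to library depth) of Xist and 0 of Ddx3y, while the other 5 OPC libraries had at most 1.14 of Xist and 117 to 149 of Ddx3y. Among neuron libraries, ctl 1 and dKO 1 had 203 and 166 CPM of Ddx3y and the other 4 at most 0.918. Total counts ran from 14935963 to 19812274 per OPC library and from 15052901 to 16344585 per neuron library.

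In ctl OPC libraries the members spanned a wide range of levels per length. Mbp was the highest, at 2662 to 2988 FPKM over the 3 libraries, and did not overlap with the next. Mobp (median 1160 FPKM), Mal (1116), Cnp (1115) and Cldn11 (1024) followed with ranges that overlapped each with its neighbour. Mag (634) and Mog (481) also overlapped, whereas Ermn (264) and Opalin (104) overlapped with no other member. Together the 9 genes took 4.54% to 4.8% of all counts in the ctl OPC libraries and 3.47% to 5.99% in the dKO ones. Mbp alone accounted for 46.8% to 54.1% of the members' counts in ctl and for 55.3% to 62.4% in dKO.

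In OPC libraries of dKO mice, 7 of the 9 members had lower mean levels than in ctl, and Mbp and Mobp had higher ones. The 7 lay within a narrow band of log2 fold change, from -0.62 for Opalin to -0.37 for Mag, and the median over all 9 was -0.42 against 0.0055 over all 17365 genes tested. No member passed the edgeR quasi-likelihood test after Benjamini-Hochberg adjustment over all genes, where 0.00576% of genes did. Likewise 0 passed under DESeq2 or edgeR's likelihood-ratio test. At an unadjusted p under 0.05, 2 members were lower (background 5.27% of genes) and 0 were higher (background 6.27%). The same 2, Mog and Opalin, were the members whose dKO libraries all lay below all ctl libraries, which 9.55% of tested genes did. No member lay wholly above, as 7.41% of genes did. The number lower at the unadjusted level was 0 without ctl 2 (2.73% of genes in that fit), 1 without dKO 2 (5.20%), 1 without dKO 3 (5.10%) and 5 without dKO 1 (Mog, Opalin, Ermn, Cldn11 and Mal, beside 4.98% of genes). The median was -0.26 without ctl 2 and -0.58 without dKO 1.

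In bulk RNA, fewer mature oligodendrocytes in a library and less transcript per oligodendrocyte cannot be told apart. Markers of some other cells differed between the same libraries, although none passed edgeR after adjustment. All 16 microglial genes on the list were higher in dKO OPC libraries, each with an unadjusted edgeR p under 0.05, and their summed level was 314 to 395 CPM in ctl against 407 to 1367 in dKO. All 14 astrocyte genes were higher and 13 passed at that level, with sums of 1878 to 3095 CPM against 2815 to 8050. Endothelial genes were 15 of 15 higher with 1 passing, mural genes 9 of 11 with 0 and neuronal genes 11 of 13 with 2, beside 6.27% of all genes. Of the 2 Schwann-cell genes tested, Prx overlapped between groups, and Ncmap was lower in every dKO library (-0.75, edgeR adjusted p = 0.545) at 16 normalized counts or fewer, with an r of 0.95 to the mean of the 7 lower members. No gene of these lists was at 0 in all libraries. Their part in the members' lower levels was not tested.

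**Figure D1:**
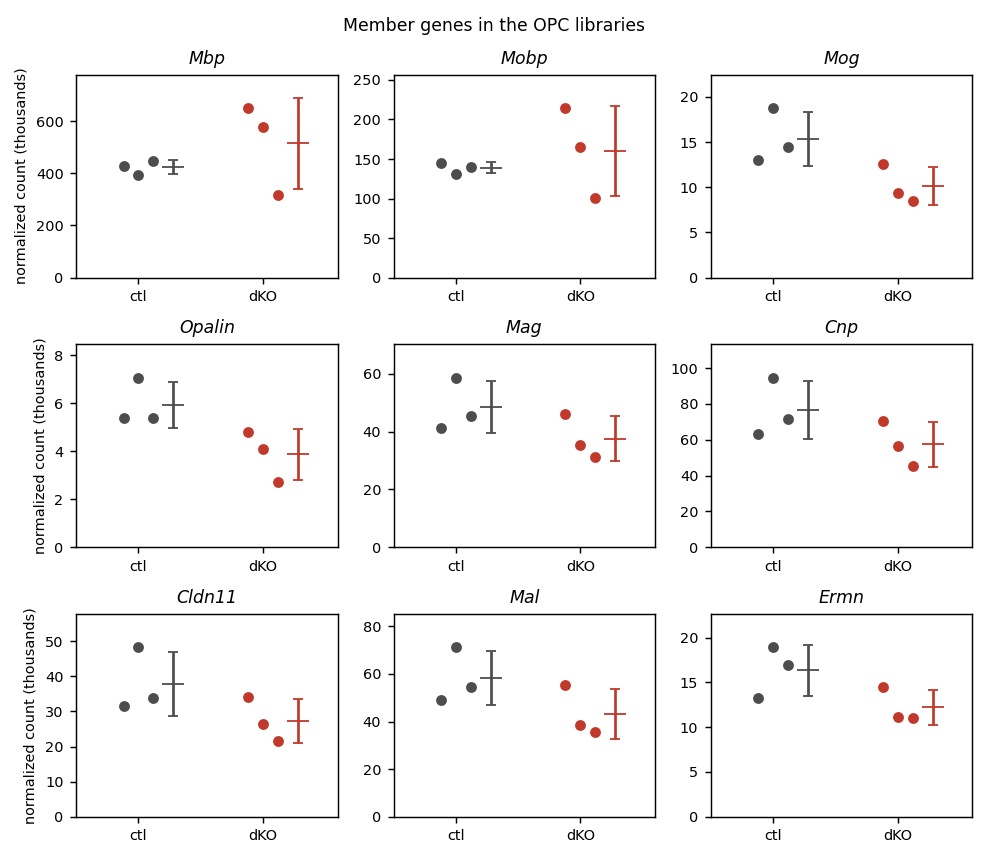
Normalized counts (linear axes from 0) of the 9 members in the 3 ctl (grey) and 3 dKO (red) OPC libraries, with mean ± SD beside the points. Mog and Opalin do not overlap between groups, and Mbp and Mobp are spread widely in dKO.

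Mog (ENSMUSG00000076439), an adhesion-like protein of the outer myelin surface, had 12971, 18730 and 14453 normalized counts in the ctl OPC libraries 1 to 3 and 12565, 9423 and 8508 in the dKO libraries. Every dKO library was below every ctl library, although the gap between dKO 1 and ctl 1 was small. The group means were 15384 ± 2990 (SD, n = 3) and 10166 ± 2128, and the log2 fold change was -0.60 ± 0.20 SE, with an unadjusted p of 0.0177 and an adjusted p of 0.348 by edgeR. The call at the unadjusted level was lost without ctl 2 (edgeR unadjusted p = 0.0687), without dKO 2 (0.0523) or without dKO 3 (0.0512), with log2 fold changes of -0.43, -0.55 and -0.49, and when libraries were scaled to other myelin genes (-0.26, unadjusted p = 0.0829).

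Opalin (ENSMUSG00000050121), a transmembrane protein known as a marker of mature oligodendrocytes, had 5372, 7047 and 5386 normalized counts in ctl and 4793, 4099 and 2715 in dKO. The groups did not overlap, and dKO 3 was the lowest library, with means of 5935 ± 963 (SD, n = 3) and 3869 ± 1058. Its log2 fold change of -0.62 ± 0.22 was the lowest of the 9, with an unadjusted p of 0.0198 and an adjusted p of 0.355 by edgeR. Leaving out ctl 2 ended its call (edgeR unadjusted p = 0.0751), as did scaling to other myelin genes (-0.30, unadjusted p = 0.101), and leaving out dKO 2, the library with Xist, did not (-0.66, unadjusted p = 0.0282).

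Mag (ENSMUSG00000036634), the adhesion protein that faces the axon, had 41386, 58575 and 45564 normalized counts in ctl and 46127, 35511 and 31093 in dKO. Here dKO 1 was above 2 of the ctl libraries, so the groups overlapped. Its log2 fold change was -0.37 ± 0.23 (edgeR adjusted p = 0.561), and -0.21 without ctl 2.

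Cnp (ENSMUSG00000006782), an enzyme of the cytoplasmic channels in myelin, had 63260, 94475 and 71578 in ctl and 70408, 56528 and 45442 in dKO. Cldn11 (ENSMUSG00000037625), the tight-junction protein between myelin layers, had 31533, 48234 and 33784 in ctl and 33989, 26415 and 21620 in dKO. For both genes ctl 2 was the highest library, dKO 3 was the lowest, and dKO 1 lay among the ctl libraries. The log2 fold changes were -0.41 ± 0.25 for Cnp (edgeR adjusted p = 0.561) and -0.47 ± 0.24 for Cldn11 (adjusted p = 0.495). Without ctl 2 they were -0.23 and -0.26.

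Mal (ENSMUSG00000027375), a small membrane protein of lipid-rich domains that sorts cargo to the myelin membrane, had 49059, 71132 and 54687 normalized counts in ctl and 55307, 38642 and 35732 in dKO. Ermn (ENSMUSG00000026830), a cytoskeletal protein of late oligodendrocytes, had 13223, 18904 and 16923 in ctl and 14489, 11116 and 11050 in dKO. In each case only dKO 1 reached into the ctl range. Log2 fold changes were -0.43 ± 0.25 for Mal (edgeR adjusted p = 0.532) and -0.42 ± 0.19 for Ermn (edgeR unadjusted p = 0.0534, adjusted p = 0.442). Without ctl 2 that of Mal was -0.26.

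Mbp (ENSMUSG00000041607), which adheres the cytoplasmic faces of compact myelin, had 426734, 394353 and 446558 normalized counts in ctl and 648425, 575800 and 317915 in dKO. The ctl libraries were close together, with a coefficient of variation of 6.24%, and the dKO libraries were not, at 33.8%. Libraries dKO 1 and dKO 2 were above all ctl libraries and dKO 3 was below all of them. The log2 fold change was 0.28 ± 0.38 (edgeR adjusted p = 0.813), with 0.081 without dKO 1 and 0.52 without dKO 3.

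Mobp (ENSMUSG00000032517), a basic protein of the same cytoplasmic face, behaved as Mbp did, with 145147, 131552 and 140145 normalized counts in ctl and 213989, 165691 and 100862 in dKO. Its coefficient of variation was 4.95% in ctl and 35.4% in dKO. The log2 fold change of 0.21 ± 0.31 (edgeR adjusted p = 0.841) turned to -0.06 without dKO 1, so its sign rested on that library, and was 0.44 without dKO 3.

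**Figure D2:**
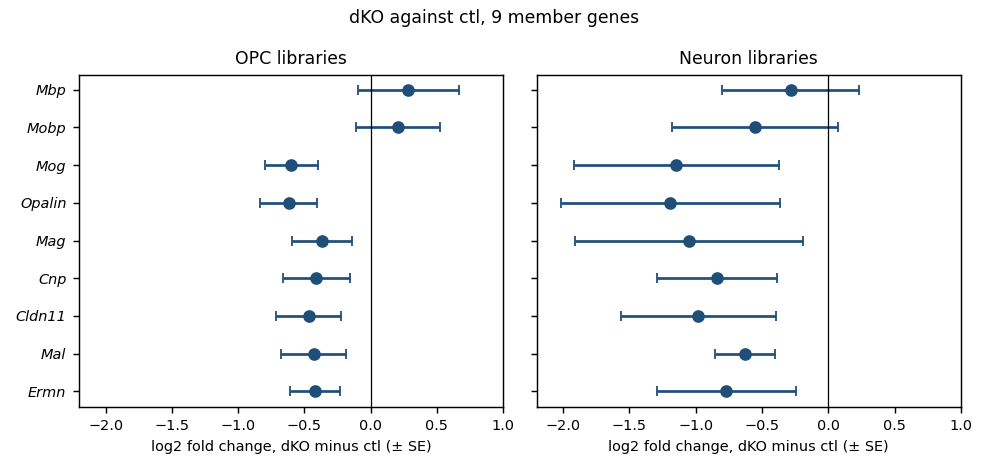
Log2 fold change (dKO minus ctl, linear axis) of each member with its SE from edgeR, in OPC libraries (left) and neuron libraries (right). In OPCs Mbp and Mobp stand to the right of 0 and the other 7 members to the left, whereas in neurons all 9 are left of 0 with wider errors (scaling to other myelin genes would put Mbp at 0.087).

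The division of the members was also visible within libraries, where depth and scaling cancel. For each Mog transcript counted, OPC libraries held 32.9, 21.1 and 30.9 Mbp counts in ctl and 51.6, 61.1 and 37.4 in dKO. For each Opalin count they held 79.4, 56 and 82.9 Mbp counts in ctl and 135, 140 and 117 in dKO. Every dKO library was above every ctl library in both ratios. The same held for 5 of the 7 ratios of Mbp to another member (to Mog, Cnp, Cldn11, Opalin and Mal), where it held for 5.05% of the ratios of Mbp to all other tested genes. Mobp gave 3 such ratios of 7 (to Mog, Cldn11 and Opalin) against a background of 3.81%. Several of these separations were narrow, between dKO 3 and ctl 1. They were 8.9 against 8.7 for Mbp to Mal and 7 against 6.75 for Mbp to Cnp. For Mobp they were 4.67 against 4.6 to Cldn11 and 11.9 against 11.2 to Mog. Mog and Opalin, whose ratios to Mbp are printed in full, are the members that were themselves lower in every dKO library. No ratio of either gene to these 7 was lower in every dKO library. The ratios share their numerator and many denominators move together, so they are not separate observations.

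The mean log2 level of Mbp and Mobp over that of the other 7 members was 3.42, 2.77 and 3.27 in the ctl OPC libraries and 3.93, 4.03 and 3.48 in the dKO libraries. The dKO libraries were all above, and the means differed by 0.66 on the log2 scale. No p is given, since the grouping was made after the values were seen. In an alternative added for the same reason, OPC libraries were scaled to other myelin genes in place of all genes. These were the genes, of 47 listed, that matched by symbol and passed a floor on mean counts. That scaling moved the median of all genes to 0.35. The 7 members then had log2 fold changes from -0.30 (Opalin) to -0.03 (Mag), while Mbp stood at 0.56 ± 0.16 and Mobp at 0.48 ± 0.16, values given as a description.

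**Figure D3:**
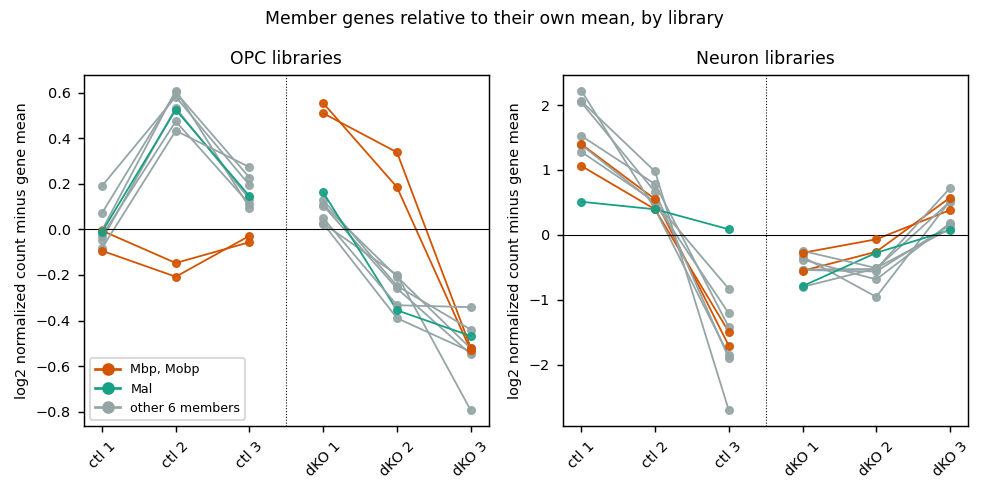
Log2 normalized count of each member minus its own mean over the 6 libraries of a cell type, with lines that only join the points of a gene within a group. In OPCs Mbp and Mobp (orange) part from the other 7 in ctl 2, dKO 1 and dKO 2 and meet them in dKO 3; in neurons Mal (green) parts from the other 8 in ctl 3.

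Correlations over the 6 OPC libraries described the same division, as values that share the libraries and the genotype difference. Among the 7 other members Pearson's r of log2 normalized counts ran from 0.85 to 0.99 over 21 pairs. Mbp and Mobp correlated with each other at 0.97. The 14 pairs of Mbp or Mobp with one of the 7 ran from -0.000596 to 0.36, with a median of 0.20.

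**Figure D4:**
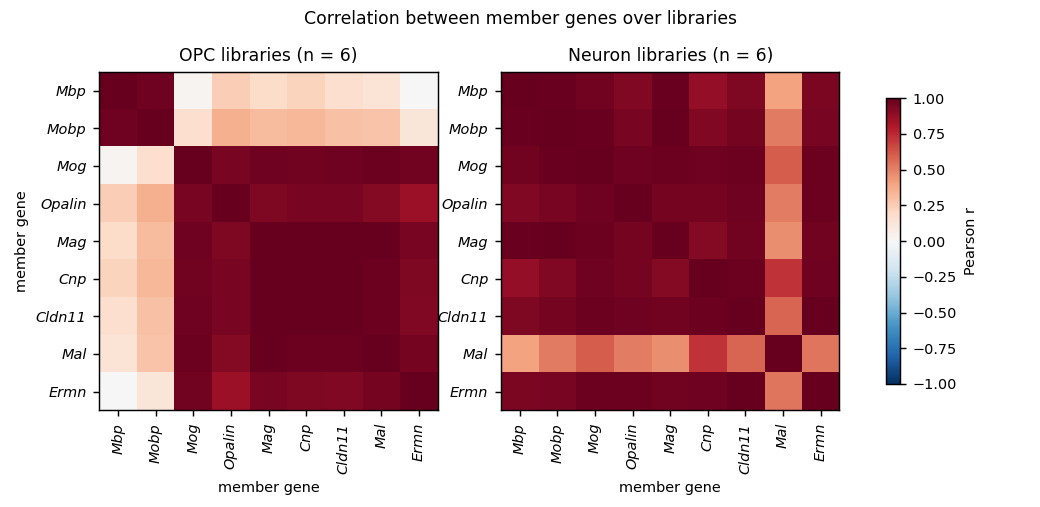
Pearson's r (colour scale from -1 to 1) between members over 6 OPC libraries (left) and 6 neuron libraries (right). Mbp and Mobp form a block of their own in OPCs, and Mal is the pale row and column in neurons.

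The genes whose OPC pattern was most like the mean of all 9 members included Cfl2 (r = 0.997), Rab5a, Tmem151a, Edil3, Fbxo7, Spock1, Rhog, Gpt and Tmem88b (r = 0.992). Of those named, Tmem88b was on a list of other myelin genes. Since the 9 hold a pair of patterns, each was also looked up by itself, a choice made after the values were seen. The 7 members were followed most closely by D16Ertd472e, the gap-junction gene Gjb1, Frmd8 and Galnt6 (r from 0.998 to 0.997). Genes most like Mbp and Mobp were the ribosomal Rps7 (r = 0.994), the myelin-associated Plekhb1 (0.992), Anp32b (0.992) and the ferritin heavy chain Fth1 (0.991). Bcas1, a gene of early myelinating cells, reached 0.98. It was the highest of the 14 genes of committed, premyelinating cells, whose r ran from -0.39 with a median of 0.38.

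Other myelin genes were also lower on average, from lists chosen with earlier results known. Of 21 further membrane genes, 21 had lower means in dKO OPCs, beside 49.2% of all tested genes, 2 of them at an unadjusted edgeR p under 0.05 (Omg, -0.47, and Gjb1, -0.42), and the list's median log2 fold change was -0.32. Of 26 genes for cytosolic and secreted myelin proteins, 25 were lower and 7 passed at the unadjusted level (5.27% of all genes were lower at it), led by Aspa, which breaks down N-acetylaspartate (-0.72 ± 0.14, edgeR unadjusted p = 0.000838, adjusted p = 0.246). Carns1 (-0.68) and Padi2 (-0.50), which modifies Mbp, came next. Plekhb1 was the exception, at 0.22. With 0 of these 47 genes passing after adjustment, the members' medians and those of the other lists are given side by side only.

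Correlation with the mean of the 7 members exceeded 0.9 for 17 of the 21 membrane genes and 14 of the 26 cytosolic ones, beside 4.5% of all tested genes. With Mbp and Mobp it did so for 0 of 21 and 1 of 26, beside 1.15% of all. Cd9 (r = 0.83) was the closest of the membrane genes to that pair.

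The regulators of the lineage split evenly, with 10 of 20 lower and 10 higher and a median of -0.03. Myrf, the factor that switches on myelin genes, had 13706, 18414 and 13526 normalized counts in ctl OPC libraries and 14422, 12028 and 10020 in dKO, and its correlation with the 7 members was 0.97 over the 6 libraries. This was the highest r of the 20 regulators, which ran from -0.88 with a median of 0.63. Of the 20, 5 exceeded 0.9, beside 4.5% of all tested genes. The log2 fold change of Myrf was -0.32 ± 0.19 (edgeR adjusted p = 0.549). Hdac1, a deacetylase with a part in oligodendrocyte maturation, had 996, 1083 and 979 in ctl and 444, 555 and 503 in dKO (-1.02 ± 0.12, edgeR unadjusted p = 1.77e-05, adjusted p = 0.0714). In its own DESeq2 analysis the study names a gene written Hdac among those decreased in OPCs. Id2, which holds precursors undifferentiated, was higher at 0.67 ± 0.19 (edgeR unadjusted p = 0.00746, adjusted p = 0.31), and Hes5, of the Notch pathway, at 1.83 ± 0.71 (unadjusted p = 0.0303, adjusted p = 0.387). Hes5 counts were low, at 7, 36 and 18 normalized counts in ctl and 40, 138 and 32 in dKO. Its groups overlapped, and dKO 2 was by far the highest library. Of the OPC markers, 14 of 15 had higher means in dKO, with a median of 0.57, and 1, Ptprz1, passed at the unadjusted level (0.92 ± 0.39, edgeR unadjusted p = 0.044). Summed levels of the list were 550, 1001 and 791 CPM in ctl and 855, 1742 and 828 in dKO, so only dKO 2, the library with Xist, was above the ctl range. Ptprz1 was likewise highest there, at 9493 normalized counts against 3391 and 4445 in the other dKO libraries. Pdgfra had 767, 2050 and 1275 in ctl and 1728, 3265 and 1274 in dKO, so the groups overlapped. Genes of committed, premyelinating cells had a median of -0.02, with 8 of 14 lower and Bmp4 the 1 that passed (0.49 ± 0.21, edgeR unadjusted p = 0.0437, adjusted p = 0.426). Bmp4 overlapped between groups and was likewise highest in dKO 2, at 462 normalized counts.

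Counts in neuron libraries were far lower and far more uneven. The 9 members together took 0.229%, 0.146% and 0.0558% of all counts in the ctl neuron libraries 1 to 3 and 0.0817%, 0.0941% and 0.135% in the dKO libraries. In TPM the order of ctl medians was Mbp (690), Mal (229), Cnp (115), Cldn11 (57.3), Mobp (40.2), Mag (39.9), Mog (24.8), Ermn (11.9) and Opalin (7.2). Every neighbour in this order overlapped with the next, since ctl 1 was the highest library for all 9 and ctl 3 the lowest for 8. Levels of the same gene in the separate tables were not compared by a test, because the tables were made in different ways.

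All 9 members had lower means in dKO neurons, except Mbp (0.087) when libraries were scaled to other myelin genes, with log2 fold changes from -1.19 (Opalin) to -0.29 (Mbp) and a median of -0.84, against 0.0075 over 14352 tested genes. No member passed after adjustment in edgeR, nor did any gene (0%), and 0 members passed in DESeq2 or the likelihood-ratio test. At an unadjusted p under 0.05, 1 member, Mal, was lower (background 4.04%) and 0 were higher (4.96%). Mal was also the 1 member whose dKO libraries all lay below the ctl libraries (7.82% of tested genes), and none lay above (7.50%).

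The neuron values depended on single ctl libraries. Without ctl 1 the median log2 fold change was -0.07, 0 members passed at the unadjusted level (2.14% of genes were lower at that level in the same fit), and Mbp (0.30), Mobp (0.18) and Opalin (0.19) turned to higher means in dKO. The count was also 0 without ctl 2 (4.10% of genes) or dKO 2 (5.02%). Without ctl 3 the median was -1.22 and all 9 members were lower at that level, beside 3.00% of genes in that fit, with edgeR adjusted p from 0.693 to 0.719. Opalin shows the pattern: it had 507, 143 and 30 normalized counts in ctl and 86, 56 and 156 in dKO. Between the libraries with Y-linked counts, ctl 1 and dKO 1, the values were 507 and 86. Among the other 4, dKO 2 (56) lay between the ctl values and dKO 3 (156) above them.

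Mag, which faces the axon, varied most, from 1765 normalized counts in ctl 1 to 832 and 65 in ctl 2 and 3, with 292, 294 and 697 in dKO. This 27-fold range over libraries was wider than that of 99.4% of tested genes. Mog had 889, 342 and 58 in ctl and 124, 151 and 308 in dKO, a 15.4-fold range. Mbp itself had 18534, 11668 and 3152 in ctl and 7329, 8470 and 11573 in dKO, so the 3 dKO libraries lay between the ctl extremes. For these genes the dKO libraries were the more alike, within 2.39-fold for Mag, 2.5-fold for Mog and 1.58-fold for Mbp.

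The remaining members other than Mal shared the extremes, ctl 1 and ctl 3, with small differences of order between. Mobp had 1644, 913 and 191 normalized counts in ctl and 425, 521 and 929 in dKO (log2 fold change -0.55 ± 0.62, edgeR adjusted p = 0.812). Cnp had 4113, 2409 and 952 in ctl and 1164, 1146 and 1876 in dKO (-0.84 ± 0.45, edgeR adjusted p = 0.61). Both placed ctl 1 highest and ctl 3 lowest, as did Cldn11, with 1473, 880 and 191 against 393, 318 and 580. Ermn had 689, 370 and 114 in ctl and 222, 185 and 281 in dKO. The log2 fold changes were -0.98 ± 0.59 for Cldn11 (edgeR adjusted p = 0.654) and -0.77 ± 0.53 for Ermn (adjusted p = 0.694). Those of Mog, Mag and Opalin were -1.15 ± 0.77, -1.05 ± 0.86 and -1.19 ± 0.83, with edgeR adjusted p of 0.692, 0.737 and 0.696. Mbp stood at -0.29 ± 0.51 (adjusted p = 0.893).

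Mal did not follow the other 8. It had 5906, 5450 and 4402 normalized counts in ctl and 2399, 3423 and 4368 in dKO, so that ctl 3, the lowest library for the others, kept most of it. The log2 fold change was -0.63 ± 0.23 (edgeR unadjusted p = 0.0233, adjusted p = 0.521). The gap between the groups was only 34 counts wide at its narrowest, and on the transcript table's scaling dKO 3 (4390) was above ctl 3 (4363). The unadjusted call was lost without ctl 1 (edgeR unadjusted p = 0.0769), ctl 2 (0.0622) or dKO 2 (0.0559), with log2 fold changes of -0.54, -0.60 and -0.63, and when libraries were scaled to other myelin genes (-0.49, unadjusted p = 0.325). Mal correlated with the mean of the other 8 members at 0.55 over the 6 libraries, whereas each of the other 8 correlated with the rest at 0.96 or more.

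A related membrane gene, Pllp, kept company with Mal (r = 0.93), with 5050, 4309 and 4108 normalized counts in ctl and 2817, 2891 and 3620 in dKO neurons (-0.53 ± 0.16, edgeR unadjusted p = 0.00955, adjusted p = 0.521). Endothelial genes had a median r of 0.85 with Mal, the highest of the marker lists, and of 0.16 with the mean of the other 8. All 15 were lower in dKO neurons, with summed levels of 25286 to 28346 CPM in ctl and 13626 to 23430 in dKO, none at 0 in all libraries. Their part in Mal's values was not tested. The 10 genes most like Mal, looked up after its values were seen, were Tac1, Rbms1, Slc25a20, Mrtfb, Evi5, Degs2, Crip2, Vps13d, Rpn1 and Arhgef10 (r from 0.998 to 0.984), none of them on a myelin list.

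By contrast, genes most like the mean of all 9 members in neurons included 4 named here that are known from oligodendrocytes (Fa2h, Olig1, Sox10 and Tspan2). Among them were Fa2h, which makes the hydroxylated lipids of myelin (r = 0.996), Ptprd, the lineage factor Olig1 (0.983), Tagln, Bnip1, Oaf, Plec, Sox10 (0.97) and Tspan2. Myrf was at 52, 24 and 4 normalized counts in ctl neurons and 19, 8 and 4 in dKO.

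Among all tested genes in neurons 48.9% had lower means in dKO, with 4.04% lower and 4.96% higher at the unadjusted level, and the lists are read beside these shares. Of the 21 other membrane genes of myelin, 16 were lower in dKO neurons and 5 higher, with 2 at the unadjusted level (Pllp and Hapln2) and a median of -0.67. Of 25 tested cytosolic and secreted ones, 15 were lower and 10 higher, with 3 lower and 2 higher at that level and a median of -0.23. Apod (-0.90, edgeR unadjusted p = 0.00302) and Padi2 (-1.10, unadjusted p = 0.00967) were lower in every dKO library, with adjusted p = 0.521 for both. In its own DESeq2 analysis the study names Apod among the genes decreased in neurons. Enpp2, a secreted enzyme that the choroid plexus also makes, had 98305, 115538 and 65105 normalized counts in ctl and 251214, 101550 and 190599 in dKO (0.96 ± 0.36, edgeR unadjusted p = 0.0257). OPC markers had 7 of 14 lower and a median of -0.01, with 1 lower (Cspg4, -1.36) and 1 higher (Cacng4, 0.85) at the unadjusted level. Premyelinating genes had 11 of 12 lower, a median of -0.59 and 4 that passed at the unadjusted level, led by Chn2 (-0.52, edgeR unadjusted p = 0.0121), Rras2 (-0.41) and Enpp6 (-1.46). Regulators had a median of -0.13, with 11 of 19 lower and none passing. Microglial genes were 16 of 16 lower with 0 at the unadjusted level, with summed levels of 529 to 2506 CPM in ctl and 534 to 1375 in dKO. Neuronal genes were 13 of 15 higher, 2 of them passing at that level (Syn1, 0.66, and Stmn2, 0.54). The Schwann-cell gene Prx had at most 43 normalized counts. Astrocyte genes had 11 of 14 lower with 2 passing, and mural genes 5 of 11 lower with 0 passing.

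The neuron table resolves transcripts, and 26 of the members' 36 transcripts had a mean normalized count of at least 10. Estimated counts of transcripts that share exons carry assignment error, and 11 of the 26 were at 0 in at least 1 library, 7 of them from Mag. Lower means in dKO were seen for 23 of the 26, beside 48.5% of all tested transcripts. Transcripts of the same gene are not separate observations. By edgeR, 0 passed after adjustment (0% of 40066 transcripts) and 1, Mal NM_010762, had an unadjusted p under 0.05 (unadjusted p = 0.0391, background 4.60% in either direction). Simulated 4-fold changes at the spread of this table were not called either (0 of 184), so these p-values say nothing about stability.

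Mbp has an upstream start, used by the Golli transcripts, and a start 79.4 to 79.5 kb downstream, used by the transcripts for the classic myelin proteins, distances taken from the GENCODE M21 annotation. In the deposited OPC table, whose coordinates are not those of GRCm38, the gene runs from 82493271 to 82603762 on chromosome 18. The classic NM_001025259, which held most of the counts, had 14455, 8301 and 2169 in ctl neurons and 5820, 6507 and 8820 in dKO, a 6.66-fold range. NM_001025255 and NM_001025256 had 5.54-fold and 4.9-fold ranges with the same extremes in ctl. NM_001025251 had 324 normalized counts in ctl 1 and 36 in ctl 3.

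The Golli-start NM_001025245 had the same extremes but varied less. It had 358, 230 and 175 normalized counts in ctl and 318, 236 and 244 in dKO, a 2.04-fold range, with a log2 fold change of 0.06 ± 0.32 (edgeR adjusted p = 1). Golli transcripts are known from neurons and immune cells as well as from oligodendrocytes. The other Golli-start transcript, NM_010777, was near the floor, with 23 counts at most.

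**Figure D5:**
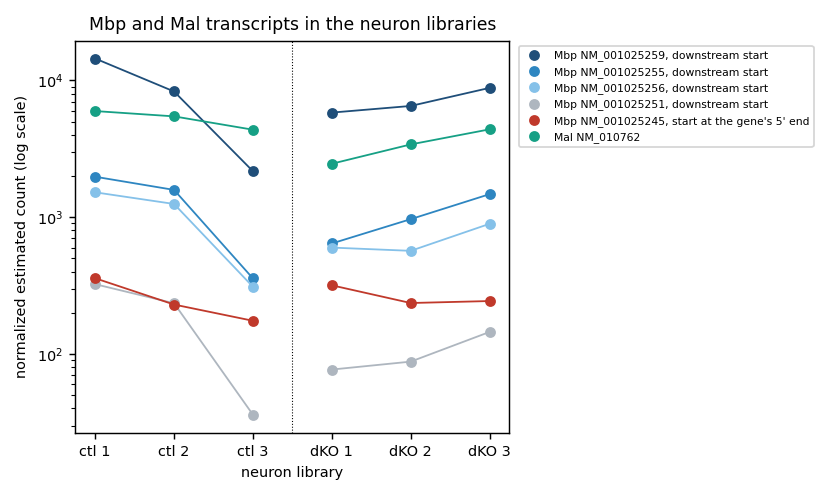
Normalized estimated counts (log axis) of 5 Mbp transcripts and 1 Mal transcript in the 6 neuron libraries, with lines that only join points within a group. The 4 transcripts from the downstream Mbp start are lowest together in ctl 3, while the Golli-start transcript (red) and Mal (green) stay within 2.04-fold and 2.43-fold over all libraries.

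Cnp, which has a pair of transcripts, was also uneven. NM_001146318 had 2741, 1574 and 397 normalized counts in ctl and 470, 577 and 1105 in dKO, a 6.9-fold range, and NM_009923 had 1417, 844 and 546 against 724, 564 and 780, a 2.59-fold range. The pair start at the same place in the annotation. Their log2 fold changes were -1.13 ± 0.69 and -0.44 ± 0.35, and the difference between them was not tested. Of the Mobp transcripts, NM_008614 had 1304, 745 and 150 in ctl and 361, 424 and 801 in dKO, and NM_001039365 had 357, 171 and 39 against 75, 94 and 133. The main Mag transcripts, NM_001346085 and NM_001346088, were at 620 and 645 in ctl 1 and at 0 and 34 in ctl 3.

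The higher ratio of Mbp to other members was partly seen in neurons too. Mbp counts per Cnp count were 4.51, 4.84 and 3.31 in ctl and 6.3, 7.39 and 6.17 in dKO. The ratios of Mbp to Cnp, Cldn11 and Ermn were higher in every dKO library, 3 of 7 ratios, beside 0.381% of the ratios of Mbp to all other tested genes, and 0 of 7 ratios of Mobp were, beside 0.134%. Over the ctl neuron libraries Mbp ranged 5.88-fold and Mobp 8.62-fold, so ratios to genes without that range seldom part the groups. The shares over all genes are therefore low in advance, and no excess of members is read from them. The mean log2 level of Mbp and Mobp over the other 7 was 1.85, 2.07 and 2 in ctl and 2.3, 2.61 and 2.35 in dKO, a difference of 0.45. Whether the difference in neurons and that in OPCs were alike was not tested.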

How the data were processed

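RNA from OPCs and neurons of mouse cortex was measured in 12 libraries, 3 per group, with 2 mice pooled in each. Raw read counts and FPKM values per gene were deposited by the authors for OPCs, from HISAT2 alignment to GRCm38 and featureCounts per their methods. The submitters' processing notes name mm39, and 2.09% of the table's gene positions equal those of GENCODE M21 on GRCm38, so positions are printed as deposited and promoters come from RefSeq GRCm38.p6. For neurons the authors deposited estimated counts and TPM values per transcript, and the program that made them is not given in the sources used here. Estimated counts were summed per Entrez gene, rounded, and named through RefSeq (17794 of 17918 genes; genes without a name held 0.0441% of counts). The authors' fold changes and p-values, and 18 further per-sample columns, were not used.

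Each cell type was fitted on its own with edgeR 4.0.16 in R 4.3.3 (TMM, quasi-likelihood test, genotype only) on genes averaging 10 or more normalized counts, scaling factors being computed on those genes, with Benjamini-Hochberg adjustment over all genes tested and a threshold of 0.05. Normalized counts are counts divided by effective library size and brought to the mean depth. DESeq2 1.42.0 was an alternative, with other scalings, no filter, a replicate block, each library left out, and NM transcripts alone. Intervals were not computed, since counting error is small beside the spread between libraries. On simulated counts with 4-fold changes in 200 genes the test called 193 of the 195 changed genes it tested in OPCs and 192 of 196 in neurons, but 0 of 184 among transcripts. It also called 17 unchanged genes in OPCs and 9 in neurons. The simulation gave every gene the same spread and larger changes than the members had, so it does not measure the power for the members. Correlations used log2(normalized count + 1). The members and gene lists were chosen with earlier results of these data known. Named were all members, their transcripts with a mean of at least 10, at most 3 genes of smallest p per other list plus genes that check labels, the targeted genes, and the 10 genes most like the members' mean in each cell type. A few of the genes that this rule picks are not reported here.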

Additional observations from a re-analysis of the deposited data

How the results depend on the processing

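No member passed after adjustment under any alternative, in OPCs, neurons or neuron transcripts. That was so for every fit, so the adjusted threshold says nothing about stability here. In OPCs 1 of 117 log2 fold changes of members turned sign under 13 alternatives, in neurons 4 of 126 under 14 and among transcripts 17 of 305 under 12. The number of OPC members with an unadjusted p under 0.05, which was 2, became 4 (Mog, Opalin, Ermn and Cldn11, all lower) under DESeq2 (5.20% of all genes were lower at that level), with no filter on low counts (3.56%) and in edgeR's likelihood-ratio test (5.18%), an alternative added after the data were seen. It ranged from 0 (without ctl 2) to 5 (without dKO 1) with each library left out. Scaling to other myelin genes, also added after the data were seen, moved the OPC median log2 fold change from -0.42 to -0.078. It also ended the unadjusted calls of Mog and Opalin. The 2 members past that level were then Mbp and Mobp, as were 15.1% of all genes in the higher direction, and nothing is read from them. In neurons the number at that level, which was 1, became 2 under DESeq2 (4.91% of genes lower) and 0 with that scaling (1.24%), and ranged from 0 (without ctl 1) to 9 (without ctl 3). Among transcripts it was 1, and 2 under DESeq2 (4.98% of transcripts lower) and the likelihood-ratio test (2.60%), and ranged from 0 (1.49%) to 10 (1.68%) without these same libraries. The cause of these moves was not tested.

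Signs turned for values close to 0 or resting on 1 library. With each library left out, the log2 fold change of Mobp in OPCs ranged from -0.060 to 0.44, and those of Mbp, Mobp and Opalin in neurons from -0.73 to 0.30, -1.03 to 0.18 and -1.71 to 0.19. Scaling to other myelin genes put Mbp in neurons at 0.087. The corresponding ranges of transcripts were -0.96 to 0.24 for Mobp NM_008614, -0.70 to 0.43 for Mbp NM_001025259, -0.80 to 0.082 for NM_001025255, -0.64 to 0.24 for NM_010777 and -0.16 to 0.39 for NM_001025245. They were -1.72 to 0.21 for Opalin NM_153520, -8.39 to 8.27 for Mag NM_001369262, -1.52 to 0.0077 for NM_001346085 and -0.20 to 1.06 for XM_036152726. Each of these 3 Mag transcripts was at 0 in at least 1 library.

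Replicate numbers were shared by the groups, but same-numbered libraries did not deviate together (correlations of -0.108, 0.147 and 0.113 in OPCs and 0.166, -0.0758 and -0.0759 in neurons), so they were not treated as pairs. With a replicate block 2 OPC members (4.59% of genes lower at that level), 1 neuron member (4.12%) and 0 transcripts (1.59%) had an unadjusted p under 0.05, the median log2 fold changes of members were -0.42 in OPCs and -0.66 in neurons, and Mbp NM_001025259 (0.068) and Mag NM_001346086 (3.49) turned positive. Among all genes, edgeR's quasi-likelihood test called 1 in OPCs and 0 in neurons after adjustment, DESeq2 293 and 88, and the likelihood-ratio test 296 and 43. Among transcripts the counts were 0, 716 and 261.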
